A study of Mus musculus with 6 samples.

Results

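The 9 genes described here, Plaur, Plau, Timp1, Icam1, Igfbp3, Igfbp5, Lif, Csf1 and Gdf15, encode secreted or cell-surface proteins that are commonly read as signs of cellular senescence. They were found by symbol among the 32285 genes counted in the mouse submandibular salivary gland, and each symbol matched a row in all 3 single-cell libraries. The irradiated group was the whole Epcam-positive epithelium, taken 90 days after the left gland received 30 Gy. The basal sort held Epcam-positive, Cd49f-high cells of untreated glands, and the untreated group was the whole Epcam-positive epithelium with no treatment. All mice were wild-type C57BL/6J females. The labels give them an age of 8 to 10 weeks, which the irradiated mice had passed by the time of collection. Each group was 1 droplet library of 3' tag counts in which 3 mice were told apart by hashtag antibodies (n = 3 mice per group throughout). Because every group was a single library, library effects cannot be told apart from group, nor can age in the irradiated mice.

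Senescent cells have stopped dividing for good but stay metabolically active, and they release cytokines, proteases and their inhibitors, and growth factor binding proteins. Radiation that damages DNA is a known trigger, and NF-kB is a transcription factor known to drive many of these genes. Plaur encodes uPAR, a membrane-anchored receptor that holds the protease urokinase, the product of Plau, at the cell surface, where it converts plasminogen to plasmin. Timp1 is a secreted inhibitor of matrix metalloproteinases, and Icam1 is an adhesion protein that binds integrins of leukocytes. Igfbp3 and Igfbp5 bind insulin-like growth factors outside the cell. Lif, Csf1 and Gdf15 are secreted signals: Lif acts through gp130 and STAT3, Csf1 sustains macrophages, and Gdf15 is a stress-induced hormone of the TGF-beta superfamily.

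The 9 genes lie on 8 chromosomes, with Lif and Igfbp3 on the same one. On the GRCm38.p6 assembly, RefSeq places Plaur at chr7:24460937-24475970, Plau at chr14:20836662-20843388, Timp1 at chrX:20870166-20874737 and Icam1 at chr9:21015940-21028814. Igfbp3 lies at chr11:7206086-7215498, Igfbp5 at chr1:72858065-72874865, Lif at chr11:4257568-4272514, Csf1 at chr3:107741048-107760469 and Gdf15 at chr8:70629393-70632470. RefSeq promoter windows of 300 bases, from 250 before to 50 after the start, were at hand for 8 of the 9 genes, Plau being the one without. For Plaur, Igfbp3 and a second Gdf15 window, this start lies inside the gene span given above, and so does the whole window. Of 7 motifs, all searched on both strands, AP-1 (TGANTCA) was found in the windows of Plaur, 69 bases before the start, and of Lif, 228 before. The NF-kB consensus was found in Lif (178 before), Csf1 (154 before) and, as an overlapping pair of matches, Igfbp5. A STAT match (TTCNNNGAA) stood 42 bases before the start of Icam1, and a TATA box match (TATAAA) 13 bases after it. None of the 7 motifs was found in the windows of Timp1, Igfbp3 or Gdf15. Among 32851 mouse promoter windows of this length, 7.81% held AP-1, 11.2% NF-kB, 8.30% STAT and 13.6% the TATA box. The other motifs searched were CRE (TGACGTCA, in 1.79% of windows), CARE (TGATGNAA, 3.97%) and a p53 site (8.36%). These matches describe the sequence and are not binding sites. The windows of the 4 genes whose values are followed most closely below are printed 5′ to 3′ on the gene's own strand, with AP-1, NF-kB and STAT matches in capitals: Plaur at chr7:24462233-24462532 (plus strand), Icam1 at chr9:21015690-21015989 (plus), Lif at chr11:4257318-4257617 (plus) and Csf1 at chr3:107760420-107760719 (minus).
Plaur: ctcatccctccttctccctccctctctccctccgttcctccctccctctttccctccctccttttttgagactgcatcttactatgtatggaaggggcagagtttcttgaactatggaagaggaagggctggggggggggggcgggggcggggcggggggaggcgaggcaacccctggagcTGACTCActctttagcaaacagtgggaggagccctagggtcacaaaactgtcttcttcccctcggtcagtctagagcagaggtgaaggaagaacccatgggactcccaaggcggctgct
Icam1: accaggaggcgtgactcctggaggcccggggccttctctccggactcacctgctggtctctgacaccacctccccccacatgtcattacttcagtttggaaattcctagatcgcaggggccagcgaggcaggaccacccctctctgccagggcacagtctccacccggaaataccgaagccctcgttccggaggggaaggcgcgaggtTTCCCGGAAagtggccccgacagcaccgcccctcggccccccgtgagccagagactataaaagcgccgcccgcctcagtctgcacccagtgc
Lif: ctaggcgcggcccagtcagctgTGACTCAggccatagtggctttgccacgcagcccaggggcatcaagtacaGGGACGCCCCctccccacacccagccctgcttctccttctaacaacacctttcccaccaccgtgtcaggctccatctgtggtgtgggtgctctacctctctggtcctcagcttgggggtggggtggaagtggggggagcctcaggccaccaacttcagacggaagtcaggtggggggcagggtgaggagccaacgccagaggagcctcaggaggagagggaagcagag
Csf1: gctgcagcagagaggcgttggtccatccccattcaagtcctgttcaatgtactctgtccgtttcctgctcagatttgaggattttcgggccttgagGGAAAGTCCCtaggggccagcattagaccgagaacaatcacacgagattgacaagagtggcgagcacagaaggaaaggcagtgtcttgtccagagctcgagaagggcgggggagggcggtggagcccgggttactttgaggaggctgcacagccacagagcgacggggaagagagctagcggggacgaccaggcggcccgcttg

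After filtering, 2062 irradiated cells, 3073 basal-sort cells and 2090 untreated cells were kept. Summed counts per mouse ran from 7126772 to 27813793 UMIs (unique molecular identifiers, 1 per captured transcript) in the irradiated mice, from 9453656 to 18047682 in the basal sort and from 11368354 to 14466948 in the untreated mice. Mitochondrial transcripts, whose share bears on RNA quality, made up a median of 4.11% to 4.79% per mouse in irradiated, 4.51% to 5.15% in basal-sort and 9.02% to 9.98% in untreated cells. Before filtering the median was 5.25% over irradiated, 5.19% over basal-sort and 19.3% over untreated barcodes. The filter on genes and mitochondrial share kept 2629 of 3319 irradiated, 4418 of 5044 basal-sort and 4093 of 8277 untreated barcodes. Libraries shared few barcodes: 1 between the irradiated library and the basal sort, 8 between irradiated and untreated, and 15 between the basal sort and untreated. Itga6, which encodes Cd49f, was highest in the Cd49f-high basal sort, at 174 to 204 CPM (counts scaled to the library total). It stood at 110 to 119 CPM in irradiated and 62.4 to 77.5 CPM in untreated mice. Epcam stood at 1979 to 2313 CPM in irradiated, 1470 to 1688 in basal-sort and 910 to 1090 CPM in untreated mice. Both genes thus differed between the irradiated and untreated groups, which had the same Epcam-positive gate, and the cause was not tested. The immune marker Ptprc was at or under 0.829 CPM in every mouse. A list of 10 endothelial markers summed to 1.55 to 8.62 CPM in irradiated, 89.1 to 179 in basal-sort and 20.4 to 43.9 CPM in untreated mice, and 115 basal-sort cells formed an endothelial-like cluster although Cd31-positive cells had been sorted out. The 10 immune markers summed to 3.34 to 15.2 CPM in irradiated, 4.97 to 5.87 in basal-sort and 2.11 to 8.57 CPM in untreated mice. The 9 fibroblast markers, mostly Dcn, summed to 44.3 to 136 CPM in irradiated, 1957 to 3051 in basal-sort and 56.7 to 267 CPM in untreated mice. The part of these cells in the differences was not tested.

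Over all kept cells, 7 of the 9 genes rose in the irradiated epithelium relative to the untreated one and 2 fell. For none of the 9 did the irradiated and untreated mice overlap. The share of all tested genes without such overlap was not counted, here or within the classes below, so it gives no background for this. The rises lay between 3.09-fold (Csf1) and 15.7-fold (Lif), and both genes that fell encode IGF binding proteins. Values are CPM of the counts summed per mouse, tested with edgeR's quasi-likelihood test with Benjamini-Hochberg adjustment over 11868 genes. In this comparison 20.6% of all tested genes rose and 19.6% fell, so a change as such was common. The median log2 fold change was 2.04 over the 9 genes and -0.03 over all tested genes. A sum over all cells cannot tell fewer cells of a class from less RNA per cell, and the classes were not equally present. Acinar markers summed to 78.6 to 2596 CPM in irradiated and 62872 to 82716 CPM in untreated mice, with 9 acinar-like cells among the irradiated and 192 among the untreated ones. Intercalated duct markers summed to 1113 to 2542 CPM in irradiated and 11359 to 15411 CPM in untreated mice. Without acinar-like cells all 9 genes passed in the same direction, with log2 fold changes of 3.85 for Lif, 1.89 for Plaur and -1.47 for Igfbp5. The part of the intercalated duct-like cells was not tested.

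Plaur stood at 77.9, 79.3 and 41.8 CPM in the irradiated mice, against 13.8, 12.6 and 12.9 CPM in the untreated mice. The untreated mice were close together, and the lowest irradiated mouse was well above them (log2 fold change 2.04, SE 0.22, edgeR adjusted p = 0.000187). Its ligand Plau stood at 6.59, 17.9 and 8.14 CPM in the irradiated mice, against 2.38, 1.59 and 1.76 CPM in the untreated mice (2.30, SE 0.40, edgeR adjusted p = 0.00223). Irradiated mouse 2 was the highest for Plau, and without it the log2 fold change was 1.68. Timp1 stood at 60.6, 69.4 and 57.4 CPM in the irradiated mice, against 12.4, 6.64 and 11.6 CPM in the untreated mice. Its irradiated values were tight and far from the untreated ones (2.34, SE 0.18, edgeR adjusted p = 4.08e-05).

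Icam1 stood at 184, 190 and 131 CPM in the irradiated mice, against 36.3, 34.6 and 50.5 CPM in the untreated mice (log2 fold change 1.76, SE 0.17, edgeR adjusted p = 0.000119). Igfbp5 had 27.5, 23.0 and 22.1 CPM in the irradiated mice, against 41.4, 49.8 and 53.5 CPM in the untreated mice, so every irradiated mouse was lower (-1.31, SE 0.13, edgeR adjusted p = 0.000132). Igfbp3 was rare, with 31 UMIs in all irradiated cells and 73 in all untreated cells. It stood at 0.982, 0.683 and 0.479 CPM in the irradiated mice, against 1.15, 2.97 and 1.41 CPM in the untreated mice (-1.75, SE 0.46, edgeR adjusted p = 0.0165). The highest irradiated and the lowest untreated mouse were close, with exact Poisson 95% intervals of 0.395 to 2.02 and 0.629 to 1.93 CPM that overlap. The Igfbp3 call was lost without irradiated mouse 2 (adjusted p = 0.0741), irradiated mouse 3 (0.0543) or untreated mouse 2 (0.0573, with a log2 fold change of -1.16), edgeR in each case. Of the untreated Igfbp3 UMIs, 67.1% came from 19 endothelial-like cells, a class of which the irradiated library held 1 cell; the part of these cells in the difference was not tested.

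Lif stood at 17.5, 24.4 and 7.95 CPM in the irradiated mice, against 1.07, 0.415 and 1.23 CPM in the untreated mice. It was close to absent from the untreated epithelium, where 33 UMIs were counted in 2090 cells, and its log2 fold change of 3.97 was the largest of the 9 (SE 0.49, edgeR adjusted p = 0.00042). Csf1 stood at 47.0, 83.0 and 62.1 CPM in the irradiated mice, against 20.7, 14.1 and 16.7 CPM in the untreated mice (1.63, SE 0.20, edgeR adjusted p = 0.000413). Gdf15 stood at 66.7, 76.4 and 52.8 CPM in the irradiated mice, against 22.0, 5.74 and 11.2 CPM in the untreated mice. Relative to their mean the untreated mice spread more for Gdf15 than for any other gene that rose, yet stayed below all irradiated mice (2.07, SE 0.35, edgeR adjusted p = 0.00204).

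**Figure D1:**
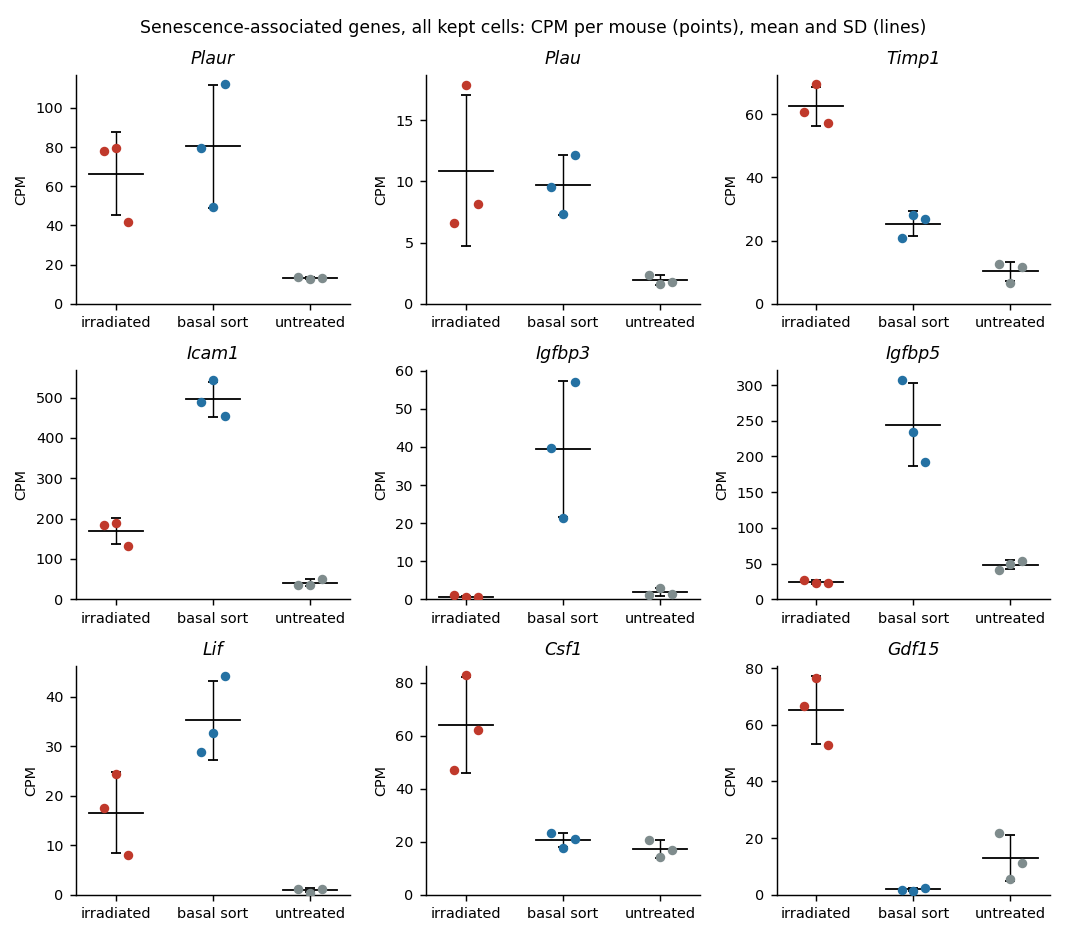
CPM of each of the 9 genes over all kept cells, with a point per mouse and the mean and SD over 3 mice as lines, for the irradiated epithelium, the basal sort and the untreated epithelium; each panel has its own axis from 0. Plaur, Plau, Timp1, Icam1, Lif, Csf1 and Gdf15 are higher in every irradiated mouse than in every untreated one, and Igfbp3 and Igfbp5 are lower.

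The change was also seen in how many cells held the transcripts. Cells with at least 1 UMI of 3 or more of the 9 genes made up 46.2%, 47.7% and 42.0% of cells in the irradiated mice, against 10.2%, 7.82% and 8.90% in the untreated mice. Irradiated cells were sequenced more deeply, with a median of 19420.5 to 20513 UMIs per cell and mouse, against 12084 to 12217 in untreated cells. Untreated acinar-like cells, whose median depth was 24470 to 27907.5 UMIs, reached that count of genes in 0% to 1.79% of cells. They held little of these genes, with means of 0.499 CPM of Plaur, 0.354 CPM of Igfbp5 and 1.92 CPM of Csf1. Their low share therefore cannot show what part depth had. The part of depth in the share of cells with 3 or more of the genes was not tested. When every cell was thinned to 3000 UMIs, which kept 1964 of 2062 irradiated and 1962 of 2090 untreated cells and left out the shallower ones, the expected share of cells with a UMI of Icam1 was 29.1% ± 2.33 in irradiated and 10.1% ± 0.742 in untreated mice (SD, n = 3 each). At that depth Csf1 was seen in 15.7% ± 2.26 of irradiated and 6.65% ± 0.785 of untreated cells, and Plaur in 11.7% ± 2.47 of irradiated and 3.03% ± 0.423 of untreated cells. Lif was seen in 3.40% ± 1.09 of irradiated and 0.335% ± 0.119 of untreated cells. The share was higher in every irradiated mouse for the same 7 genes that rose, and lower in every irradiated mouse for Igfbp5, at 5.36% ± 0.775 in irradiated and 12.9% ± 1.24 in untreated mice. For Igfbp3 the groups overlapped. The share of all genes that separate in this way after thinning was not counted, so these counts have no background. Without thinning, 33.5%, 31.9% and 24.3% of cells had a Plaur UMI in the irradiated mice, against 7.47%, 5.12% and 5.83% in the untreated mice.

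**Figure D2:**
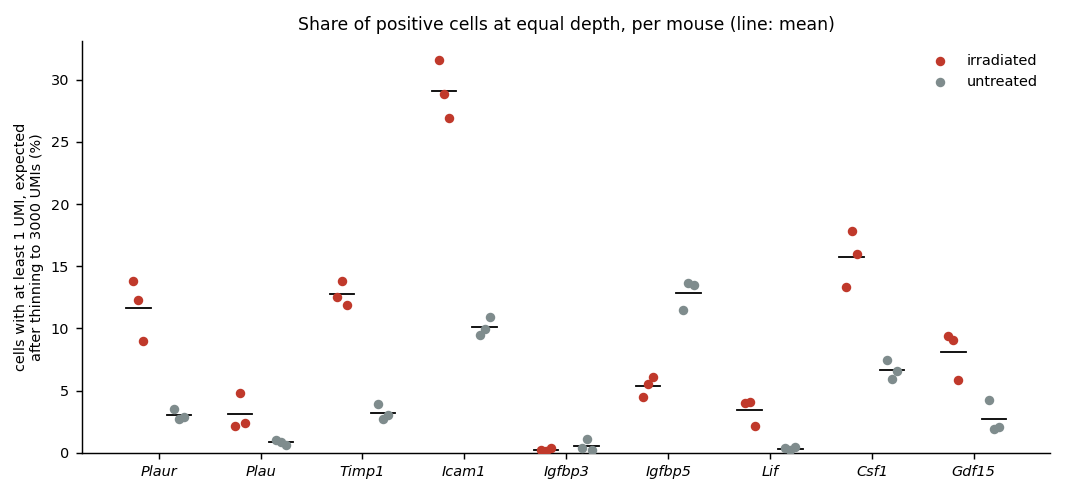
Share of cells (in percent) expected to hold at least 1 UMI of each gene after thinning every cell to 3000 UMIs, per mouse (points), with the group mean as a line, irradiated left of untreated. For Icam1 the irradiated mean is 29.1% and the untreated mean 10.1%, and Igfbp5 runs the other way, at 5.36% and 12.9%.

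The genes around the 9 moved as follows in the same comparison, with the share of all genes that rose (20.6%) and fell (19.6%) as the background. Of 15 tested NF-kB genes, 13 rose and none fell (median log2 fold change 0.96): Relb, a subunit, averaged 103 ± 10.6 CPM in irradiated and 25.9 ± 9.26 CPM in untreated mice (1.70), and Nfkbia, the inhibitor that NF-kB induces, 695 ± 123 CPM in irradiated and 246 ± 33.1 CPM in untreated mice (1.20). Tnip1 (1.89) and Birc3 (1.08), further NF-kB targets, also rose. Of 18 cell cycle arrest and senescence genes, 5 rose and 3 fell (median log2 fold change 0.10), and this list also holds genes of dividing cells, such as Mki67 and Ccna2. Cdkn1a, the p53 target that blocks cyclin-dependent kinases, averaged 484 ± 194 CPM in irradiated and 44.2 ± 9.29 CPM in untreated mice (3.14). Mdm2 and Ccng1, also p53 targets, rose by log2 2.39 and 1.76. Of 27 other secreted senescence genes, 13 rose and 3 fell: the chemokines Cxcl2 (2.97) and Cxcl16 (0.96) and the EGF-family ligand Areg (4.10) rose, and Igfbp7 fell (-3.82). Of 8 tested genes of the plasminogen system, 4 rose and none fell, among them Anxa2 (1.40) and S100a10 (1.07), which form a plasminogen-binding pair at the cell surface, and Serpinb8 (2.31). Among 15 receptors, partners and targets, 8 rose and 1 fell: Osmr, a receptor subunit that pairs with gp130, and the integrin subunit Itgav rose (2.23 and 1.72), while Socs3, the feedback inhibitor induced by STAT3, fell (-1.15). Of 13 integrated stress response targets, 7 rose and 2 fell, with Chac1 at 2.71 and Atf3 at -0.98. Of 6 other IGF binding protein and TIMP genes, 1 rose and 2 fell. Immediate-early genes, which tissue dissociation is known to induce, went the other way: 12 of 19 fell and 2 rose, with Fos at -2.10 and Hspa1a at -3.59. Their part in the differences of the 9 genes, like that of the mitochondrial share, was not tested. All calls here are at an edgeR adjusted p below 0.05, and genes too low to test are left out of the counts.

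In the irradiated epithelium the 9 genes came from different cells, as judged by clusters made without the 9 genes and named from marker lists. An unnamed cluster of 133 irradiated cells (23, 92 and 18 per mouse), led by Dcpp3, Dcpp1, Wfdc18 and Cxcl2, held 5.97% of irradiated UMIs but 70.9% of Lif, 40.7% of Plaur, 24.6% of Gdf15, 23.2% of Icam1 and 22.4% of Csf1 UMIs. The list it matched first was intercalated duct (4 of 9 markers raised), and it was left unnamed because more of its leading genes came from another list. In this cluster Plaur stood at 250 CPM in irradiated mouse 1 and 541 CPM in mouse 2, and Lif at 186 and 271 CPM; mouse 3 had fewer than 20 such cells. Over all kept cells without this cluster, an alternative chosen after seeing the data, all 9 genes kept their direction and passed the threshold, with log2 fold changes of 2.50 for Lif and 1.62 for Plaur. Granular duct-like cells, which make kallikreins and growth factors, held 59.5% of irradiated UMIs, 61.3% of Timp1 and 45.9% of Plaur UMIs. Ionocyte-like cells, which are marked by Foxi1 and Ascl3 and are rich in proton pump and channel genes, held 25.6% of irradiated UMIs but 89.5% of Plau, 52.0% of Csf1 and 51.9% of Igfbp5 UMIs. Luminal duct-like cells (123 cells) held 6.16% of irradiated UMIs and 36.4% of Gdf15. Their cluster had 8 of 10 luminal duct markers raised and also held 186200 CPM of granular duct markers, over its 150 cells of all libraries, so these cells are not free of granular duct transcripts. Without luminal duct-like cells, also chosen after seeing the data, the log2 fold change of Gdf15 was 1.48 (edgeR adjusted p = 0.0156). In the untreated epithelium the sources differed: intercalated duct-like cells held 75.8% of Lif and 41.4% of Icam1, and granular duct-like cells 42.4% of Gdf15 UMIs.

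**Figure D3:**
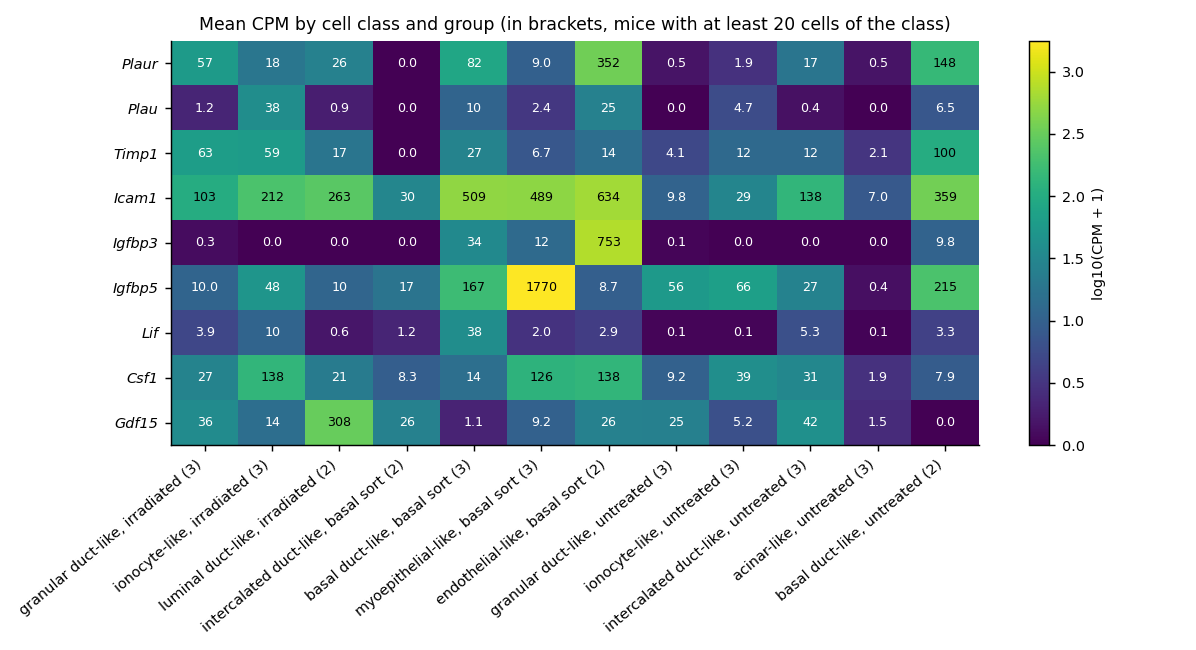
Mean CPM over mice of each gene in each cell class and group, printed in the cell and coloured by log10(CPM + 1); numbers in brackets give the mice with at least 20 cells of the class. Plau and Csf1 are highest among the irradiated classes in ionocyte-like cells (means of 38.2 and 138 CPM), Gdf15 in luminal duct-like cells (308 CPM), and Igfbp5 reaches 1770 CPM in myoepithelial-like cells of the basal sort.

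The irradiated and untreated epithelium could be compared within 2 classes that held at least 20 cells in every mouse. Within granular duct-like cells, 5 of the 7 genes that could be tested rose, Igfbp5 fell, and Gdf15 did not pass. In this class 20.8% of 9393 tested genes rose and 19.4% fell. Irradiated and untreated granular duct-like cells lay in different clusters: 2 of the 1008 irradiated cells were in the cluster that held all 423 untreated ones. The irradiated cells had the lower mitochondrial share per mouse, 3.52% to 4.20% against 9.77% to 10.0%. Immediate-early genes were lower here too, with 16 of 19 falling and 2 rising, and the part of either measure was not tested. Endothelial markers summed to 0.734 to 1.53 CPM in irradiated and 1.20 to 4.56 CPM in untreated granular duct-like cells, and immune markers to 1.28 to 3.06 CPM in irradiated and 0.410 to 1.90 CPM in untreated ones. Acinar markers summed to 40.4 to 130 CPM in irradiated and 1421 to 1638 CPM in untreated granular duct-like cells, and luminal duct markers to 15405 to 19025 CPM in irradiated and 7037 to 9227 CPM in untreated ones; their part was not tested.

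Icam1 in granular duct-like cells stood at 95.3, 118 and 94.5 CPM in the irradiated mice, against 11.8, 10.5 and 6.98 CPM in the untreated mice (log2 fold change 3.33, SE 0.17, edgeR adjusted p = 7.24e-08). Timp1 stood at 67.5, 77.5 and 43.2 CPM in the irradiated mice, against 1.90, 6.60 and 3.69 CPM in the untreated mice (3.82, SE 0.31, edgeR adjusted p = 2.94e-06), or 4.44 without untreated mouse 2 and 2.11 with each library clustered alone. Csf1 stood at 28.2, 25.8 and 27.7 CPM in the irradiated mice, against 10.3, 9.61 and 7.80 CPM in the untreated mice (1.49, SE 0.16, edgeR adjusted p = 2.14e-05), or 0.81 with each library clustered alone. None of these 3 genes overlapped between the groups, and within each group the mice were close for Csf1.

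Plaur in granular duct-like cells stood at 90.0, 56.7 and 24.8 CPM in the irradiated mice, against 1.14, 0.300 and 0 CPM in the untreated mice, where 4 UMIs were counted in 423 cells. The fitted log2 fold change of 6.76 (SE 0.72, edgeR adjusted p = 2.13e-05) rests on those 4 UMIs, and was 8.08 without untreated mouse 1. It also rests on where the class is drawn. An unnamed untreated cluster of 206 cells, led by Cox8b, Pkd2l2 and Kcne1, had 78.2, 17.5 and 31.6 CPM of Plaur per mouse, and when it was counted as granular duct-like, a choice made after seeing the data, the value was 2.13 (edgeR adjusted p = 0.00539). With each library clustered alone it was 1.67, and under the stricter cell filter 1.55, which missed the threshold (edgeR adjusted p = 0.0652). The direction was the same under every alternative run, and the size was not. Timp1 and Icam1 also had lower values with that cluster added, 2.59 and 2.71, and stayed past the threshold.

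Igfbp5 fell in granular duct-like cells, to 10.5, 12.4 and 7.05 CPM in the irradiated mice, against 60.8, 67.2 and 39.0 CPM in the untreated mice (-2.51, SE 0.21, edgeR adjusted p = 3.67e-06). The share of cells with an Igfbp5 UMI was 14.7% to 19.1% per irradiated mouse and 40.2% to 48.2% per untreated mouse, although the irradiated cells were the deeper ones. Gdf15 stood at 38.0, 38.7 and 32.2 CPM in the irradiated mice, against 59.7, 6.90 and 9.03 CPM in the untreated mice, and untreated mouse 1 lay above all others (0.52, SE 0.50, edgeR adjusted p = 0.429). Without untreated mouse 1 the value was 2.10 (edgeR adjusted p = 4.43e-05), so this mouse decides the Gdf15 call; it was also called under the other hashtag rule (3.00), with each library clustered alone (1.69) and with no filter on low counts (0.59). Lif had 111 UMIs in irradiated and 1 UMI in untreated granular duct-like cells, a ratio of 34.5 per UMI counted, with an exact 95% interval of 6.07 to 1375 that covers counting error only. The fitted Lif log2 fold change of 4.78 rests on that UMI (7.67 without untreated mouse 2) and was 2.30 with each cell weighted equally, past the threshold in both. Plau had 32 UMIs in irradiated granular duct-like cells, or 1.97, 1.41 and 0.147 CPM per mouse, and none in untreated ones. Pooled over mice, the irradiated level was 3.32 times that of 3 counts over the untreated group (0.357 CPM). This ratio leaves out counting error in the 32 irradiated UMIs, and irradiated mouse 3 lay below that floor. Igfbp3 had 4 UMIs in irradiated and 1 in untreated cells, too few to compare.

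Among granular duct-like cells the NF-kB list had 11 of 13 genes rising and none falling (median log2 fold change 0.98), with Relb at 3.08 and Rela at 1.51. Of 14 arrest and senescence genes, 6 rose and 2 fell, with Cdkn1a at 3.75, averaging 410 ± 172 CPM in irradiated and 29.5 ± 10.8 CPM in untreated mice. Trib3 (4.88) and Chac1 (4.98), both integrated stress response targets, rose among 7 of 11, and Atf3 fell (-2.13). Of 11 other secreted genes, 6 rose and 1 fell, with the chemokine Cxcl10 at 3.42 and Areg at 6.07. Socs3 fell (-2.38) and Cd63, the tetraspanin receptor of Timp1, rose (1.58).

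Within ionocyte-like cells, 7 of the 8 tested genes rose and none fell, beside 16.8% of 9514 tested genes rising and 13.0% falling. Here too the groups lay in different clusters, 1 for 651 of the 652 irradiated cells and 2 for the 589 untreated cells. The smaller untreated cluster, of 70 cells, held 199548 CPM of granular duct markers and 1168 CPM of ionocyte markers. The larger one held 10381 and 2564 CPM, so part of the untreated class is rich in granular duct transcripts. A low-UMI cluster with 103 irradiated cells and raised ionocyte markers was left unnamed and is not in the class. Csf1 stood at 126, 155 and 134 CPM in the irradiated mice, against 49.0, 31.0 and 36.9 CPM in the untreated mice (log2 fold change 1.84, SE 0.15, edgeR adjusted p = 1.23e-06). Icam1 stood at 289, 186 and 162 CPM in the irradiated mice, against 42.5, 21.3 and 22.9 CPM in the untreated mice (2.80, SE 0.24, edgeR adjusted p = 2.19e-06). Plau stood at 27.9, 58.9 and 27.8 CPM in the irradiated mice, against 6.85, 2.09 and 5.20 CPM in the untreated mice (3.19, SE 0.40, edgeR adjusted p = 6.37e-05), or 2.54 without irradiated mouse 2 and 1.86 under the stricter cell filter. Every irradiated mouse was above every untreated mouse for these genes. A Plau UMI was found in 22.9% to 37.0% of irradiated ionocyte-like cells at a median depth of 15810 to 18115 UMIs. In granular duct-like cells of the same library the share was 0.433% to 2.84% at a median depth of 23510.5 to 27217 UMIs.

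Plaur in ionocyte-like cells stood at 18.6, 14.7 and 19.98 CPM in the irradiated mice, against 1.80, 2.44 and 1.56 CPM in the untreated mice (3.08, SE 0.30, edgeR adjusted p = 6.90e-06). Timp1 stood at 79.9, 50.8 and 47.8 CPM in the irradiated mice, against 20.6, 6.97 and 8.31 CPM in the untreated mice (2.17, SE 0.29, edgeR adjusted p = 9.58e-05), or 2.86 without untreated mouse 1. Lif had 94 UMIs in irradiated and 1 UMI in untreated ionocyte-like cells, a ratio of 61.2 with an exact 95% interval of 10.7 to 2443; the fitted log2 fold change of 5.63 was 3.11 with each cell weighted equally and 7.80 without untreated mouse 1. Gdf15 stood at 10.2, 16.8 and 15.3 CPM in the irradiated mice, against 5.05, 3.84 and 6.76 CPM in the untreated mice (1.58, SE 0.27, edgeR adjusted p = 0.000733). This Gdf15 call was lost with no doublets removed within a mouse (0.74, edgeR adjusted p = 0.0934) and under the stricter cell filter (1.36, edgeR adjusted p = 0.127). Igfbp5 stood at 38.1, 43.3 and 63.1 CPM in the irradiated mice, against 52.6, 68.3 and 78.0 CPM in the untreated mice; the groups overlapped and the test was not passed (-0.44, SE 0.18, edgeR adjusted p = 0.0852). Igfbp5 did pass, at lower values in irradiated cells, under 7 of 16 alternatives, among them without irradiated mouse 3 (-0.65) and without untreated mouse 1 (-0.58). Igfbp3 was not found in ionocyte-like cells of either group, which allows up to 0.397 CPM in the untreated ones.

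Among ionocyte-like cells 13 of 15 NF-kB genes rose and none fell (median 0.98), with Nfkbia at 1.94 and Nfkbie at 2.99. Of 11 other secreted genes, 9 rose and none fell, with the neutrophil chemokines Cxcl1 (3.07), Cxcl2 (5.75) and Cxcl5 (4.29) and the interferon-induced Cxcl10 (1.49). Cdkn1a rose (3.45) among 6 of 14 arrest and senescence genes, of which 1 fell. Anxa2 averaged 739 ± 78.7 CPM in irradiated and 148 ± 29.8 CPM in untreated mice (2.30), and it, S100a10 (1.48) and Serpinb8 (2.92) were the 3 of 5 plasminogen genes that rose. Osmr (2.31) and Itgav (2.42) rose among 6 of 13 receptors, partners and targets, and Socs3 fell (-1.08). Of the 10 integrated stress response targets, 1 rose and 1 fell, and of 19 immediate-early genes 3 rose and 12 fell. The median mitochondrial share per mouse was 5.40% to 6.28% in irradiated and 11.996% to 12.3% in untreated ionocyte-like cells. Markers of other cells moved in this class. The 9 fibroblast markers summed to 215 to 503 CPM in irradiated and 29.6 to 80.0 CPM in untreated mice, with 7 to 8 markers at 0 in irradiated and 6 to 7 in untreated mice; Dcn made up 99.7% of the irradiated and 98.96% of the untreated sum. The 10 immune markers summed to 6.72 to 52.1 CPM in irradiated and 2.44 to 6.76 CPM in untreated mice, with 4 to 9 at 0 in irradiated and 4 to 6 in untreated mice, and Lyz2 made up 95.2% of the irradiated sum. The 11 granular duct markers summed to 3358 to 5103 CPM in irradiated and 38069 to 78266 CPM in untreated ionocyte-like cells, and the 12 acinar markers to 23.2 to 34.4 CPM in irradiated and 2208 to 2629 CPM in untreated ones. The part of these cells, of the mitochondrial share and of the immediate-early genes in the differences of the 9 genes was not tested.

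**Figure D4:**
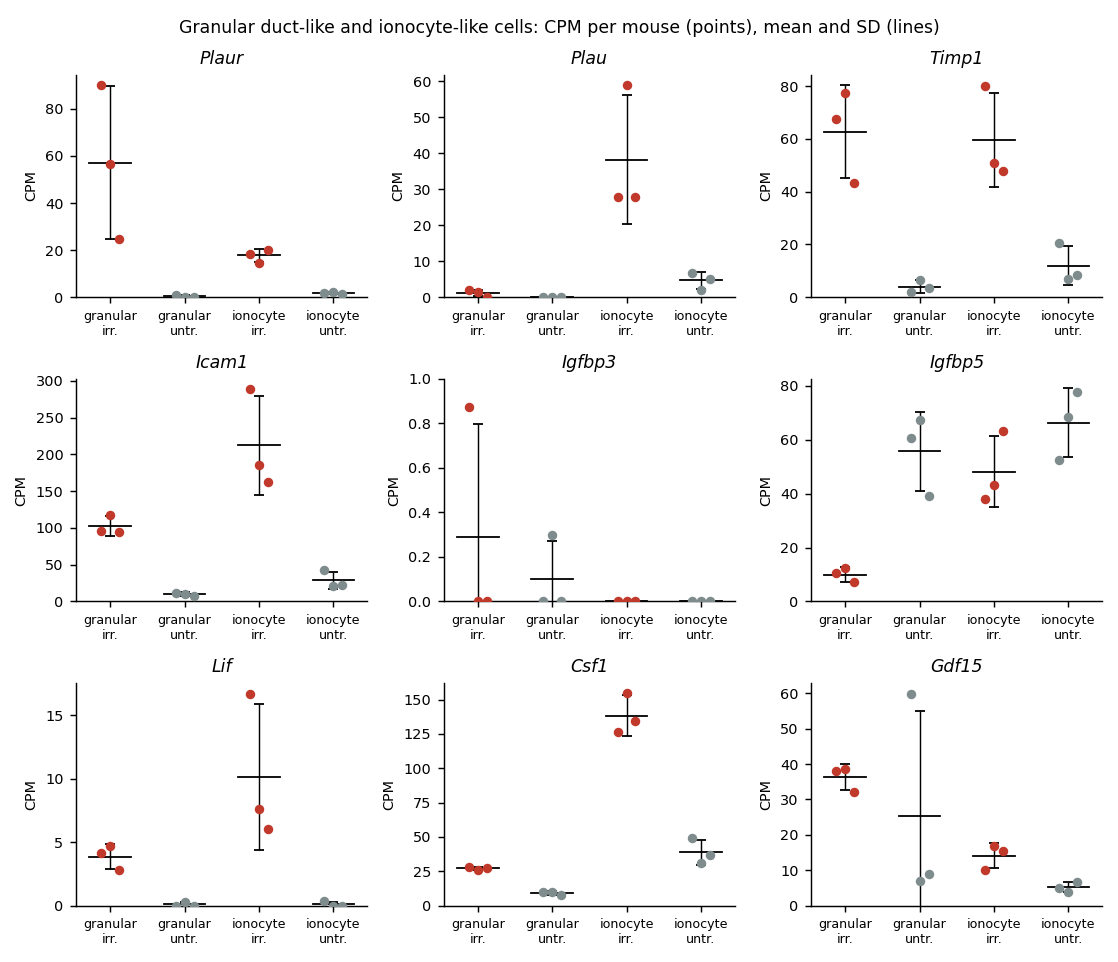
CPM of each gene per mouse (points), with mean and SD over 3 mice (lines, cut off at 0), in granular duct-like and ionocyte-like cells, irradiated (irr.) left of untreated (untr.); each panel has its own axis from 0. Plau, Icam1 and Csf1 are higher in irradiated ionocyte-like than in irradiated granular duct-like cells, and Igfbp5 falls to 9.98 CPM on average in irradiated granular duct-like cells, against 55.7 CPM in untreated ones.

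The test of whether the irradiated minus untreated difference itself differed between ionocyte-like and granular duct-like cells used an interaction term, with both classes of a mouse sharing a block, over 10372 genes. Of these, 5.58% passed as higher and 10.2% as lower in ionocyte-like cells. Of 8 genes tested, Igfbp5 passed as higher, and Plaur and Timp1 as lower, in ionocyte-like than in granular duct-like cells. For Igfbp5 the difference of the log2 fold changes was 2.02 (SE 0.28, edgeR adjusted p = 3.93e-05), and it stayed between 1.68 and 2.44 and past the threshold under every alternative run. For Plaur it was -3.51 (SE 1.05, edgeR adjusted p = 0.0278), but the sign turned to 1.07 with the Cox8b-led untreated cluster added and to 2.50 with each library clustered alone, this last value past the threshold (edgeR adjusted p = 0.0303). Leaving out untreated mouse 1, 2 or 3 gave -4.93, -2.95 or -3.17 for Plaur, the last 2 no longer past the threshold. For Timp1 it was -1.60 (SE 0.46, edgeR adjusted p = 0.0219), and the call was lost without irradiated mouse 2 (-1.28) and without untreated mouse 1 (-0.61) or 3 (-1.71), and without untreated mouse 2 it was -2.53. Over all alternatives the Timp1 call was kept in 5, lost in 9 (as low as -0.29 with no doublets removed within a mouse) and turned in sign in 1. Icam1 (-0.54), Csf1 (0.36), Gdf15 (1.01), Lif (0.95) and Plau (-2.32) did not pass; Icam1 passed without irradiated mouse 1 (-0.78), and Gdf15 without untreated mouse 3 (1.52) and with no filter on low counts (0.97). Csf1 passed with no doublets removed within a mouse (0.76), with each library clustered alone (1.02) and with the Cox8b-led cluster added (0.75), each as higher in ionocyte-like cells. Plau passed as higher in ionocyte-like cells, against its sign here, with each cell weighted equally (1.76, limma adjusted p = 0.0247).

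**Figure D5:**
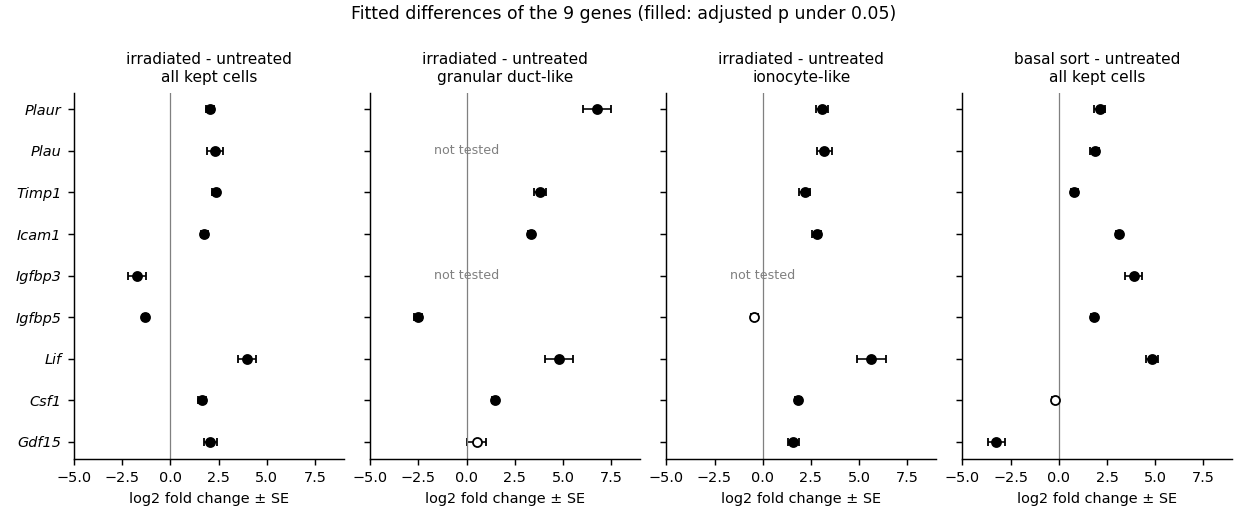
Fitted log2 fold changes with their standard errors for the 9 genes, irradiated minus untreated over all kept cells and within granular duct-like and ionocyte-like cells, and basal sort minus untreated over all kept cells; filled points have an edgeR adjusted p below 0.05. Igfbp5 is at -2.51 in granular duct-like and -0.44 in ionocyte-like cells, and Gdf15 is at -3.24 in the basal sort.

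The basal sort shows where the 9 genes stand in an untreated epithelium rich in basal cells. It was compared with the same 3 untreated mice as the irradiated epithelium, so the comparisons share their controls. Of the 9 genes, 7 were higher and Gdf15 was lower in the basal sort, beside 36.0% of 12885 tested genes higher and 36.8% lower. Icam1 stood at 488, 543 and 455 CPM in the basal sort, against 36.3, 34.6 and 50.5 CPM in the untreated mice (log2 fold change 3.10, edgeR adjusted p = 1.97e-07). Plaur stood at 79.7, 49.2 and 112 CPM in the basal sort (2.12, edgeR adjusted p = 9.45e-05), and Lif at 28.9, 32.7 and 44.2 CPM (4.81, edgeR adjusted p = 9.23e-07). Both IGF binding proteins, which fell in the irradiated epithelium, were higher in the basal sort: Igfbp5 stood at 307, 234 and 192 CPM (1.82, edgeR adjusted p = 1.20e-05) and Igfbp3 at 39.8, 21.4 and 57.2 CPM (3.87, edgeR adjusted p = 4.76e-05, or 4.49 without untreated mouse 2). Gdf15 was nearly absent, at 1.77, 1.48 and 2.38 CPM in the basal sort, against 22.0, 5.74 and 11.2 CPM in the untreated mice (-3.24, edgeR adjusted p = 0.000152, or -2.65 without untreated mouse 1). Plau and Timp1 were higher (1.85 and 0.81), and Csf1 overlapped between the groups (-0.23, SE 0.15, edgeR adjusted p = 0.191). An Icam1 UMI was found in 93.1%, 86.5% and 90.4% of basal-sort cells, against 18.8%, 19.3% and 20.1% of untreated cells, at a median depth per mouse of 11862 to 14192.5 UMIs in the basal sort and 12084 to 12217 UMIs in untreated cells.

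The surrounding lists also differed between the basal sort and the untreated epithelium, beside the 36.0% of genes higher and 36.8% lower. Of 16 NF-kB genes 11 were higher and 2 lower, with Tnip1 at 2.81 and Nfkb1 at 2.10. Of 10 genes of the plasminogen system 8 were higher and 1 lower: Lrp1, an endocytic receptor that clears protease complexes, was higher (2.35) and the protease inhibitor Serpinb6a lower (-1.63). Of 34 other secreted genes 20 were higher and 5 lower, among them Inhba, an activin subunit (3.21). Basal-sort mice averaged 118 ± 40.3 CPM of Igfbp2, against 2.16 ± 1.61 CPM in untreated mice (5.20), and 137 ± 14.2 CPM of Igfbp4, against 9.53 ± 7.21 CPM in untreated mice (3.28). Of 19 arrest and senescence genes 12 were higher and 6 lower, and Cdkn1a stood at 395 ± 55.8 CPM in the basal sort, against 44.2 ± 9.29 CPM in untreated mice (2.64). Immediate-early genes had 4 of 19 higher and 11 lower, with Fos at -2.31, and their part was not tested.

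Within the basal sort, basal duct-like cells (2609 cells) held 99.7% of Lif, 98.1% of Timp1 and 94.2% of Plaur UMIs. Igfbp5 was highest in myoepithelial-like cells, the contractile cells around acini, at 1770 ± 633 CPM (SD, n = 3), above the 167 ± 37.4 CPM of basal duct-like cells in every mouse. Csf1 followed the same order, at 126 ± 26.0 CPM in myoepithelial-like and 14.3 ± 1.25 CPM in basal duct-like cells. Icam1 overlapped between them, at 489 ± 67.1 CPM in myoepithelial-like and 509 ± 56.4 CPM in basal duct-like cells. Igfbp3 was highest in endothelial-like cells, at 623 and 883 CPM in the 2 mice with enough of them, and so was Plaur, at 295 and 410 CPM. Igfbp3 stood at 33.9 ± 16.5 CPM in basal duct-like and 12.5 ± 8.74 CPM in myoepithelial-like cells, which overlapped. Endothelial-like cells were shallow, with medians of 3510 and 3667 UMIs.

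In the untreated epithelium the order of the 4 classes with 20 cells or more in every mouse differed from gene to gene. For Icam1 it was intercalated duct-like (138 ± 45.3 CPM), ionocyte-like (28.9 ± 11.9), granular duct-like (9.76 ± 2.49) and acinar-like (7.0 ± 3.21), with overlap between the last pair alone. Plaur ran from intercalated duct-like (17.2 ± 13.2 CPM) to ionocyte-like (1.93 ± 0.455) cells, with acinar-like and granular duct-like cells at or below 1.14 CPM in every mouse. Csf1 was led by ionocyte-like (39.0 ± 9.18 CPM) and intercalated duct-like (30.8 ± 5.54) cells, which overlapped. Igfbp5 was led by ionocyte-like (66.3 ± 12.8 CPM) and granular duct-like (55.7 ± 14.8) cells, which also overlapped, and was 0.354 ± 0.407 CPM in acinar-like cells. Gdf15 overlapped between intercalated duct-like (42.0 ± 22.4 CPM) and granular duct-like (25.2 ± 29.9) cells. Timp1 was at 11.9 CPM in both ionocyte-like (SD 7.48) and intercalated duct-like (SD 2.61) cells. Lif was at 5.26 ± 3.85 CPM in intercalated duct-like cells and at or under 0.361 CPM in every mouse of the other 3 classes, and Plau at 4.71 ± 2.42 CPM in ionocyte-like cells. The few untreated basal duct-like cells (24 in mouse 2 and 23 in mouse 3) stood above these 4 classes for several genes, with 394 and 324 CPM of Icam1, 192 and 104 CPM of Plaur, 133.6 and 296 CPM of Igfbp5 and 35.8 and 165 CPM of Timp1. Plau stood at 13.04 CPM in mouse 2 and at 0 in mouse 3. Intercalated duct-like cells numbered 566 in the untreated and 7 in the irradiated library, so the class was not compared. The unnamed irradiated cluster led by Dcpp3 and Dcpp1, with some intercalated duct markers raised, is not in this class.

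Across 32 class-by-mouse sums of 8 classes and all 3 groups, Plaur was most like Cdkn1a (Pearson's r = 0.89 over log2(CPM + 1) values), followed by Tbc1d15 (0.87) and Nras (0.85). Icam1 was most like Plk2 (0.94), Igfbp3 like Lrrc8c (0.94), Igfbp5 like Ptov1 (0.91), Csf1 like Epn2 (0.93) and Gdf15 like Wbp1l (0.74). These points share libraries and mice, and the correlations describe them without a test. Lif and Plau were below the mean of 10 CPM set for this comparison.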

How the data were processed

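The authors made the deposited counts with Cell Ranger 6.1.2 on mm10, per the submitters' processing notes: UMI counts per gene and barcode, with hashtag counts, not normalized. From 3319 irradiated, 5044 basal-sort and 8277 untreated barcodes, cells were kept if they had 500 genes or more and a mitochondrial share no higher than 20%. HTODemux (Seurat 5.3.0, quantile 0.99) assigned mice, which left 295 irradiated, 998 basal-sort and 1778 untreated barcodes (11.2%, 22.6% and 43.4%) without a mouse. Of the barcodes given a single mouse, 1993 of 2153 irradiated, 2241 of 3189 basal-sort and 811 of 2165 untreated ones had at least 70% of their hashtag UMIs (10 or more) from 1 hashtag. Mouse calls were thus least clear-cut in the untreated library. Whether cells mixed between untreated mice narrowed the spread of those mice was not tested. Hashtag doublets (181, 231 and 150) were removed, and Scrublet (scanpy 1.11.5) removed 91, 116 and 75 more within a mouse, a number set to the hashtag doublets divided by 2. Leiden clustering (2000 variable genes less 8 of the 9 genes, 30 components, 15 neighbours, resolution 1) gave 20 clusters. They were named "-like" from marker lists (at least 3 markers, 1.5-fold, in 10% of cells) and otherwise left unnamed. Counts summed per mouse and class (at least 20 cells in every mouse) were tested with edgeR 4.0.16 (filterByExpr, TMM, quasi-likelihood, Benjamini-Hochberg, 0.05) in R 4.3.3, fitting the compared groups alone; the interaction fit had a term per mouse. Mice are the replicates; 3 against 3 in an exact two-sided permutation test cannot go below p = 0.1. Scripts were tested on simulated data. Intervals are exact Poisson (95%), and a count of 0 allows up to 3 counts; both cover counting error only.

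The genes, gene lists and tests were chosen with earlier results of these data known. Genes named beyond the 9 were, per list and comparison, up to 4 past the threshold with the largest absolute log2 fold change and a mean of at least 10 CPM, and the 3 genes most alike in level over class-by-mouse sums with a mean of at least 10 CPM. Alternatives were RLE size factors, DESeq2 1.42.0, no filter on low counts, leaving out each mouse, a replicate block, equal weight per cell, another hashtag rule, no doublet removal within a mouse, a stricter cell filter (1000 genes, 10%), other clusterings, and 5 cluster choices made after seeing the data. Equal weight per cell was fitted with limma 3.58.1 on log2(mean CPM + 1) values, not with edgeR. The coordinates and promoters come from RefSeq on GRCm38.p6, with no genome used here. The likeness result for Timp1 is not reported here.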

Additional observations from a re-analysis of the deposited data

Results flagged for a closer look

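The irradiated minus untreated difference of 3 genes differed between ionocyte-like and granular duct-like cells by the interaction test (edgeR quasi-likelihood, on the log2 scale, ionocyte-like minus granular duct-like). For Igfbp5 it was 2.02 (adjusted p = 3.93e-05), for Plaur -3.51 (adjusted p = 0.0278) and for Timp1 -1.60 (adjusted p = 0.0219). The Plaur and Timp1 calls were lost or turned in sign under other clusterings, and were also lost when single mice were left out; the cause was not tested.

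Barcodes with no hashtag call, which enter no comparison, held the genes as well. Plaur stood at 91.7 CPM in 295 such irradiated barcodes and 2.44 CPM in 1778 such untreated ones. The plasminogen activator Plau stood at 21.6 CPM in irradiated and 0.361 CPM in untreated barcodes, Timp1 at 43.5 CPM in irradiated and 2.71 CPM in untreated ones, and Icam1 at 197 CPM in irradiated and 9.46 CPM in untreated ones. Lif stood at 30.8 CPM in irradiated and 0.159 CPM in untreated barcodes, Csf1 at 112 CPM in irradiated and 3.30 CPM in untreated ones, and Gdf15 at 179 CPM in irradiated and 2.26 CPM in untreated ones. Igfbp5 stood at 31.3 CPM in irradiated and 12.5 CPM in untreated barcodes, and Igfbp3 at 1.84 CPM, on 7 UMIs, in irradiated and 0.0721 CPM, on 5 UMIs, in untreated ones. For Igfbp5 the share of barcodes with a UMI did not follow the CPM: it was 14.9% in irradiated and 15.3% in untreated barcodes, 8.15% in irradiated and 8.18% in untreated ones after thinning to 3000 UMIs, and 2.67% in irradiated and 4.59% in untreated ones after thinning to 1000. After thinning to 3000 UMIs, a Plaur UMI was expected in 12.4% of irradiated and 1.96% of untreated barcodes. For Icam1 these shares were 26.6% and 6.36%, so both genes differed less in share than in CPM. The untreated barcodes were also unlike the kept untreated cells, with Icam1 at 9.46 CPM, against 34.6 CPM in the lowest untreated mouse. The cell classes of these barcodes were not compared. These barcodes belong to no mouse, so the differences have no replicate check and were not tested.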

How the results depend on the processing

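Over all kept cells, 8 to 9 of the 9 genes passed when each mouse was left out in turn, with Igfbp3 the gene that was lost, and 9 passed under every other alternative. Leave-one-out counts were 5 to 7 in granular duct-like cells (6 in all mice), 7 to 8 in ionocyte-like cells (7), 8 in the basal sort (8) and 2 to 4 for the difference between classes (3). That last count fell to 1 under the stricter cell filter and to 1 with the 9 genes kept in the clustering. The Plaur difference between classes (-3.51) changed sign, to 1.23 with no doublets removed within a mouse, 1.20 under the stricter filter, 0.41 with the 9 genes kept in clustering, 2.50 with each library clustered alone (past the threshold, edgeR adjusted p = 0.0303) and 1.07 with the Cox8b-led cluster added. That of Timp1 (-1.60) changed to 0.13 with each library clustered alone. That of Plau (-2.32, not called) changed to 1.76 with each cell weighted equally, which passed (limma adjusted p = 0.0247). The cause of these changes was not tested. Over all kept cells the sizes also moved: Lif to 2.56 with each cell weighted equally, Icam1 to 1.12 and Gdf15 to 2.85 under the other hashtag rule, and Plaur to 1.41 under the stricter filter. Of all genes tested, 2836 passed in ionocyte-like cells, against 1741 with DESeq2 and 1106 under the stricter filter; 3774 in granular duct-like cells, against 2511 under the stricter filter. For the difference between classes 1633 passed, against 613 with DESeq2, 605 under the stricter filter, and 1085 and 1088 without irradiated mouse 2 and untreated mouse 2. Hashtag numbers did not pair the mice: deviations of same-numbered mice correlated at -0.18, -0.15 and -0.22 over all cells. With the number as a replicate block, 9 genes passed over all cells, 6 in granular duct-like cells, 8 in ionocyte-like cells (Igfbp5 added, -0.50, edgeR adjusted p = 0.00562) and 8 in the basal sort. Intercalated duct-like cells (7 irradiated), classes weighted equally, and the hashtag alternative in ionocyte-like cells and for the difference between classes were not run, for want of cells. Depth limits Igfbp3 everywhere outside the basal sort, and Lif and Plau in untreated classes.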

Other observations

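The unnamed irradiated cluster led by Dcpp3 and Dcpp1 had, pooled over 133 cells, 480 CPM of Plaur (exact Poisson 95% interval 454 to 507), 232 CPM of Lif (214 to 251), 683 CPM of Icam1 (652 to 714), 286 CPM of Gdf15 (267 to 307) and 272 CPM of Csf1 (252 to 292). Its untreated counterpart was a single cell, so its levels could not be set against untreated ones. Its Igfbp5 stood at 9.44 CPM in irradiated mouse 1 and 0.524 CPM in mouse 2.

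In the irradiated library, 20 basal duct-like cells held 23 of the 31 Igfbp3 UMIs (74.2%), and 4 myoepithelial-like cells held 16.2% of the Igfbp5 UMIs. In the basal sort, myoepithelial-like cells held 40.5% of Igfbp5 and 30.1% of Csf1 UMIs.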
